A study of Mus musculus with 79 samples.

Results

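A group of 79 genes, of 19445 genes in the wild-type time course, was higher within 6 h of retinoic acid (RA) in mouse embryonic stem cells and was back near or below its starting level by 72 h. Membership was set on group means of the deposited E14 signal, a read count divided by a library scaling factor. A gene was kept when the larger of its 4 h and 6 h means was at least 10 and at least 2 times the 0 h mean plus 1, and when its 72 h mean was at most 0.5 of that early mean and under 1.5 times the 0 h mean plus 1. The early part of this rule was met by 270 genes. Of these, 170 were still raised at 72 h, with a 72 h mean of at least 2 times the 0 h mean plus 1. Another 21 fell in neither class. The genes were thus selected on E14 levels at 0, 4, 6 and 72 h, which are given here as a description with no test.

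RA is a derivative of vitamin A that binds nuclear receptors of the RAR family, which sit on DNA as partners of RXR receptors and switch on nearby genes when the ligand arrives. Cultured embryonic stem cells leave the pluripotent state when RA is added, and their earliest responses include genes that degrade RA (the Cyp26 enzymes) and the Hox genes. Genes that rise for some hours and then return are a usual part of such responses to a signal.

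In the first of 3 sets, wild-type E14 embryonic stem cells were given 1 uM RA and total RNA was sequenced at 0 h (2 libraries, replicates 3 and 4), 2, 4 and 6 h (4 libraries each), 24 h (3 libraries, replicates 1, 3 and 4), 48 h and 72 h (4 each). The titles give the last time as 72 h, used here, and another label field gives 74 h. The second set is nuclear RNA of SCC1-mAID cells, an E14 line of genotype E14;Rosa26::Tir1;Scc1-mAID-eGFP in which auxin triggers loss of the cohesin subunit SCC1. It holds 3 libraries each of cells given RA (4 h) and 500 uM auxin (6 h), RA alone (4 h), auxin alone (6 h) or neither. The third set is nuclear RNA of E14 clones, with 2 libraries per clone before RA and after 2, 4, 6, 24, 48 and 74 h in it. Clones E3 and H12 carry the deletion labelled HoxTransEdel and clone G4 is labelled HoxTransEwt, so each genotype is 1 or 2 clones and a clone's own history cannot be told apart from its genotype. All cells were kept in serum with leukaemia inhibitory factor, and no time course without RA was analysed here. In bulk RNA, fewer cells expressing a gene and less RNA per cell cannot be told apart.

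The E14 libraries held 2351122 to 21078958 recovered reads, the SCC1-mAID libraries 3126025 to 7497896 and the clone libraries 4753860 to 10448512. Summed pluripotency markers stood at 3662 to 3714 CPM (counts scaled to a common library total) in E14 libraries at 0 h and at 722 to 2082 CPM at 72 h. Nothing in the labels says that replicates were separate cultures, so p-values measure the spread between these libraries, which may be technical. Auxin acts on the SCC1 protein, so RNA gives no check of its loss.

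Zan, which encodes a sperm head protein that binds the egg coat, had the largest early ratio of the 79 genes. Its E14 signal was 10.7 and 13.7 at 0 h, 95.1, 63.8, 121 and 117 at 2 h, 173, 213, 232 and 186 at 4 h and 191, 169.8, 274 and 182 at 6 h. At 24 h it was 33.2, 38.7 and 16.6, at 48 h it lay between 10.1 and 17.5, and at 72 h it was 6.93, 19.96, 4.16 and 8.68. Every library at 2, 4 and 6 h stood above every library at 0, 24, 48 and 72 h.

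Nt5e, Tmtc1 and Srms were slower and had their highest means at 24 h. Tmtc1, an O-mannosyltransferase of the endoplasmic reticulum, had a signal of 111.58 and 101.05 at 0 h, 228, 239, 379 and 413 at 2 h, 408, 571, 664 and 632 at 6 h and 546, 748 and 543 at 24 h. It was down to 213, 152, 168 and 173 at 48 h and to 125, 96.2, 79.1 and 60.8 at 72 h. Libraries of 2 to 24 h did not overlap those of 0 h, and those of 72 h did. Srms, a kinase related to Src, had a signal of 6.24 and 10.2 at 0 h, 43.3, 53.6 and 35.1 at 24 h and 13.9, 9.07, 2.08 and 5.79 at 72 h. Nt5e encodes CD73, the surface enzyme that makes adenosine from AMP. Its signal was 95.99 and 89.2 at 0 h (replicates 3 and 4) and 871, 518 and 439.8 at 24 h (replicates 1, 3 and 4). At 72 h it lay above the 0 h values in replicates 1 and 2 (252 and 181), which have no 0 h library. In replicates 3 and 4 it lay below them (45.8 and 60.8). The early ratio of Nt5e was 7.50 in replicates 1 and 2 and 3.17 in replicates 3 and 4.

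Over all 79 genes the highest E14 mean fell at 2 h for 14, 4 h for 20, 6 h for 27, 24 h for 16 and 48 h for 2. The median log2 ratio to 0 h, taken on means plus 1, was 1.06 at 2 h, 1.32 at 4 h, 1.35 at 6 h, 0.77 at 24 h, -0.09 at 48 h and -0.67 at 72 h. At 24 h, 51 genes still held at least 0.5 of their peak, and at 48 h 64 were under 0.5 of it. The 72 h mean, which the rule holds down, was below the 0 h mean for 61 of the 79 genes and below 0.5 of it for 31. Notch4, a Notch receptor of the endothelium, was among these: its signal was 283 and 281 at 0 h, 744, 691, 802 and 767 at 6 h, and 36.97, 47.2, 31.2 and 14.5 at 72 h.

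**Figure D1:**
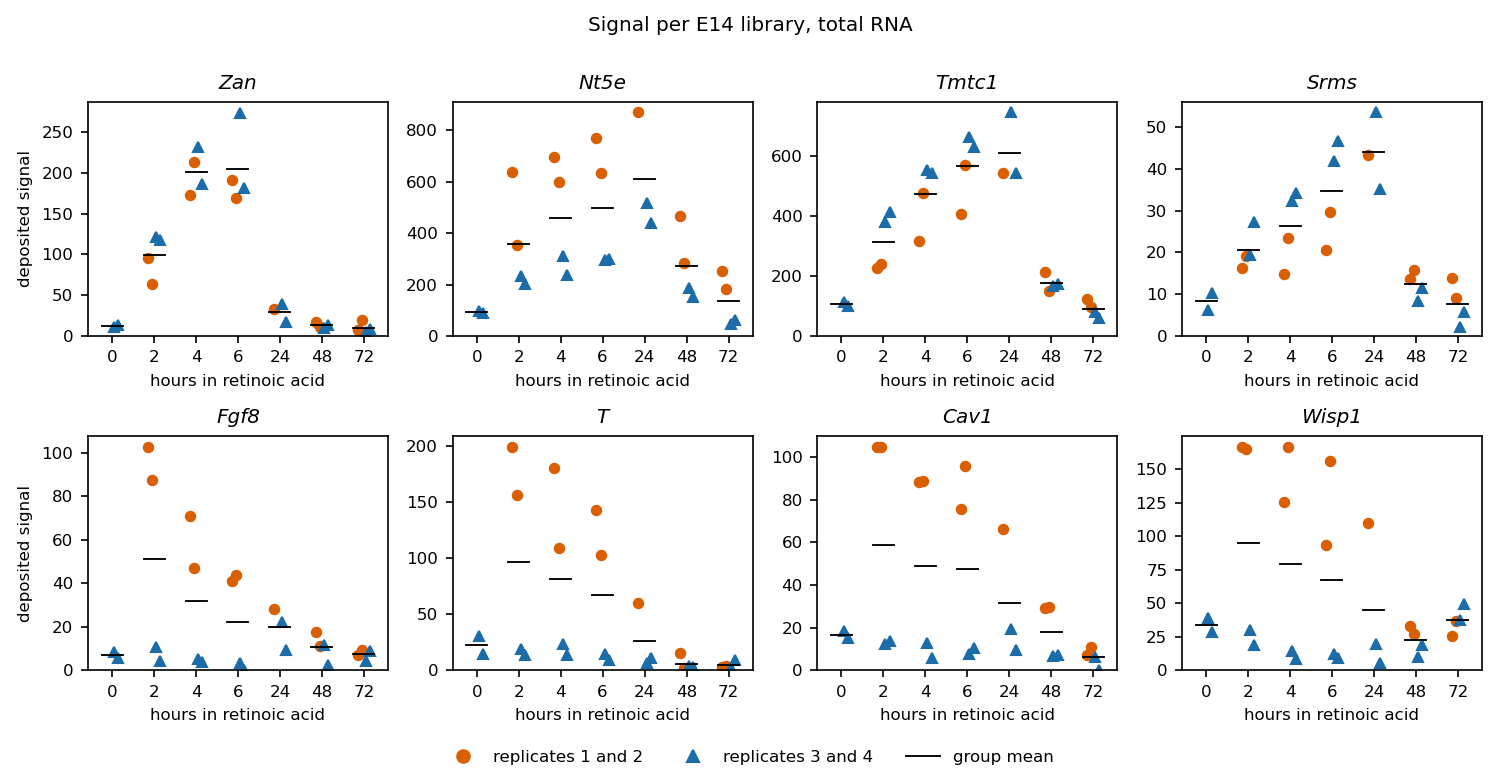
Deposited signal (y axis, linear) of 8 genes in each E14 library against hours in RA (x axis, categories); circles are replicates 1 and 2, triangles replicates 3 and 4, and short lines group means. Zan, Tmtc1 and Srms stand above the 0 h libraries at 2 to 6 h in all 4 replicates. Fgf8, T, Cav1 and Wisp1 are high at 2 to 6 h only in replicates 1 and 2.

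Genes sat close to each limit of the rule on both sides. At the minimum signal, Gm13889 (10.3) and Nos2 (11.5) were just inside and S1pr5 (9.77) and Lrrc10b (8.76) just outside. At the 2-fold limit, Slc38a8 (2.01) and Hrh3 (2.02) were inside and Gabrp (1.99) and Slc39a2 (1.97) outside. At the limit on the 72 h share of the early mean, Ksr1 (0.486) and Dmrt1 (0.483) were inside and Bhlha15 (0.507) and Fgfr4 (0.514) outside. At the limit on the 72 h level, Edn1 (1.44) and Nt5e (1.44) were inside and Nkx1-2 (1.55) and Themis2 (2.25) outside. In the authors' deposited table of classes, 50 of the 79 genes were labelled transient.induction, 21 stably_inactive, 4 stablish, 3 repressed and 1 downregulated.

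Early levels in E14 differed between replicates, and this divides the genes. In replicates 1 and 2 a response to RA cannot be told apart from a standing difference, since they have no 0 h library. The 0 h group holds only replicates 3 and 4. Measured against it, 11 of the 79 genes had an early ratio under 1.5 in replicates 3 and 4, with a range of 0.29 to 1.41, although the same ratio was 2.88 to 7.33 in replicates 1 and 2. They are Fgf8, T, Cav1, Cxcl11, Lox, Cxcl10, Wisp1, Loxl4, Il15ra, Ltbp2 and Wnt4, and 9 of them had a ratio below 1.1 in replicates 3 and 4. Several encode secreted or matrix proteins: Fgf8 is a growth factor, Lox and Loxl4 cross-link collagen, and Ltbp2 is a matrix protein. Wisp1 is a matricellular protein, and Cxcl10 and Cxcl11 are chemokines induced by interferon.

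T, the mesoderm transcription factor Brachyury, shows the division in single libraries. At 2 h its signal was 199 and 156 in replicates 1 and 2 and 18.6 and 13.7 in replicates 3 and 4, while the 0 h libraries stood at 30.5 and 14.4. At 6 h it was 143 and 103 in replicates 1 and 2 and 14.4 and 8.65 in replicates 3 and 4. Thus T stood far above 0 h in replicates 1 and 2, and replicates 3 and 4 lay within or below the 0 h range. Fgf8 behaved likewise, at 103 and 87.3 against 10.7 and 4.37 at 2 h, with 8.32 and 5.77 at 0 h. Cav1, the caveola coat protein, had 88.6 and 88.99 in replicates 1 and 2 at 4 h, 12.7 and 5.51 in replicates 3 and 4, and 18.4 and 14.96 at 0 h.

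The other 68 genes had a ratio of at least 1.5 in replicates 3 and 4. Across all 79, the median ratio was 2.71 in replicates 1 and 2 and 2.64 in replicates 3 and 4. A few leaned the other way: Gcm1, a placental transcription factor, had a ratio of 1.33 in replicates 1 and 2 and 3.18 in replicates 3 and 4, and Wnt3a, a Wnt ligand, 1.59 and 3.06. With the rule applied to replicates 3 and 4 alone, 97 genes passed, 59 of them among the 79.

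Some marker sums moved with this split. At 2, 4 and 6 h the summed fibroblast markers were 377 to 944 CPM in replicates 1 and 2, 85.4 to 125 CPM in replicates 3 and 4, and 117 to 119.8 CPM at 0 h. Extra-embryonic endoderm markers summed to 748 to 1214 CPM in replicates 1 and 2 and 543 to 685 CPM in replicates 3 and 4, and neural progenitor markers to 185 to 205 and 59.8 to 108 CPM. Trophoblast markers (80.8 to 125 and 119.5 to 160.1 CPM), immediate early genes (364 to 489.7 and 354 to 396 CPM) and pluripotency markers overlapped (3016 to 3693 and 3268 to 3715 CPM). All 6 early libraries of replicates 1 and 2 stood above all 6 of replicates 3 and 4 for 15 of the 79 genes (19.0%), 10 of them among the 11, whose choice favours this order. The same held for 6 of 11 fibroblast markers, 5 of 14 immediate early genes, 4 of 9 trophoblast markers and 819 of all 15061 genes tested (5.44%). Whether cell content or a library batch had a part in the early levels of the 11 genes was not tested.

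**Figure D2:**
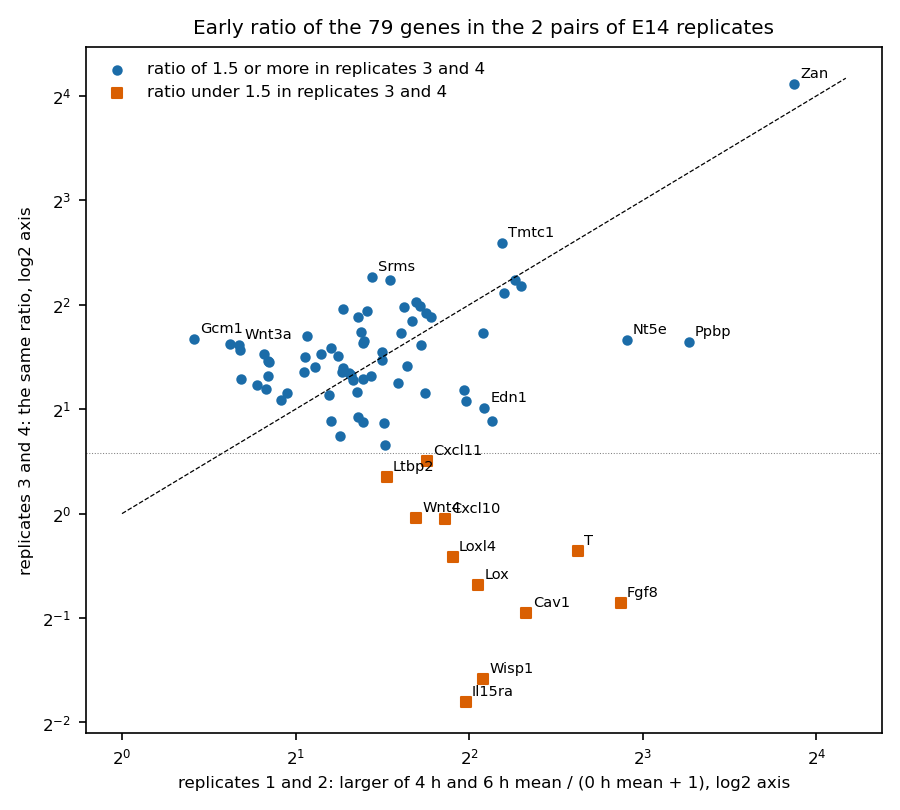
Early ratio of each of the 79 genes, the larger of the 4 h and 6 h means over the 0 h mean plus 1, in replicates 1 and 2 (x axis, log2) and in replicates 3 and 4 (y axis, log2); the dashed line marks equal ratios and the dotted line 1.5. The 11 squares lie between 2.88 and 7.33 on the x axis but between 0.29 and 1.41 on the y axis.

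Because the genes rose together within hours of adding a ligand of a DNA-binding receptor, the stretch before their transcription starts was read for the receptor's recognition letters. RefSeq windows of 300 bases, from 250 before to 50 after a start in build GRCm38.p6, were held for 58 of the 79 genes (77 windows) and for 32851 windows in all. The hexamer AGGTCA, on either strand, was present in 15 of the 77 windows (19.5%), in 17 of 154 windows of the 170 genes still raised at 72 h (11.0%) and in 16.3% of all windows. GGTTCA was in 6 (7.79%) and in 10.4% of all, the TATA box letters TATAAA in 6 (7.79%) and 13.6%, and the E-box CACGTG in 5 (6.49%) and 7.15%. The direct repeat DR5, which RAR and RXR bind and which was searched as AGGTCA, any 5 bases and AGGTCA again, was in 1 of the 77 windows, that of Ppbp, in 0 of the 154 windows of genes still raised and in 3 of all 32851 (0.01%). With the degenerate RAR hexamer in its place, the DR5 was in 1 of the 77 (1.30%), 2 of the 154 (1.30%) and 106 of all (0.32%), and the repeat with 2 bases between was in 0, 3 and 155. The exact repeat with any 2 bases between was in none of the 77 and in 3 of all. These matches overlap, since each exact repeat holds AGGTCA and the degenerate hexamer includes AGGTCA among its forms. The median number of CG dinucleotides per window was 13 for the 79 genes, 16 for the genes still raised and 7 for all windows.

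The 250 bases upstream of 5 starts are shown, 5′ to 3′ on the gene's strand: Ppbp for its repeat, Cdk15 and Srms for single hexamers, and Zan and Tmtc1 because these strongly raised genes hold none of these motifs. Capitals mark the repeat in Ppbp, the hexamer in Cdk15, and the hexamer and then the E-box in Srms. The hexamers read as TGACCT because each match is on the other strand. They lie at chr5:90768268-90768517 (plus strand), chr1:59256656-59256905 (plus), chr2:181213172-181213421 (minus), chr5:137477065-137477314 (minus) and chr6:148444353-148444602 (minus).
Ppbp: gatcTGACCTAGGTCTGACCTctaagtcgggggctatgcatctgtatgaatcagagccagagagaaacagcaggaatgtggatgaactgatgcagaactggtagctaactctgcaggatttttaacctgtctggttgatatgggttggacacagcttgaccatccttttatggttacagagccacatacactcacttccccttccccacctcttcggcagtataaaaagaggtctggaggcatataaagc
Cdk15: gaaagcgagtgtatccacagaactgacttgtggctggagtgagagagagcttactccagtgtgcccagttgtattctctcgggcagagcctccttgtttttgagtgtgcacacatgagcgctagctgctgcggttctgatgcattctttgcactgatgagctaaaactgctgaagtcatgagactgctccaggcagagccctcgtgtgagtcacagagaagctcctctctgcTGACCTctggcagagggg
Srms: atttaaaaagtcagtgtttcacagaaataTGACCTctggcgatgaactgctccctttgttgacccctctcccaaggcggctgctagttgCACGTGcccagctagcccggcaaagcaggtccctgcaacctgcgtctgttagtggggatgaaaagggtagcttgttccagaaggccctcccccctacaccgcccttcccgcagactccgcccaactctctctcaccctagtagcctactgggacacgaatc
Zan: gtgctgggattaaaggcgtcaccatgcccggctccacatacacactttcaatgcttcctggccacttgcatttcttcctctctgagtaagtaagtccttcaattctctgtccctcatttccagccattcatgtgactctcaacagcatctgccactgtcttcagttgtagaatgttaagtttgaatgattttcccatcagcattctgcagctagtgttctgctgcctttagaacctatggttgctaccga
Tmtc1: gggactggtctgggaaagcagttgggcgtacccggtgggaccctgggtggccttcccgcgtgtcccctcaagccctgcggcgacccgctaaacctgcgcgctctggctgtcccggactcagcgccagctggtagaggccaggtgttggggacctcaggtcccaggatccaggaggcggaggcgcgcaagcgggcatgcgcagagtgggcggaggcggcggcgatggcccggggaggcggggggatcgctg

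The repeat in Ppbp begins 246 bases before the start and the hexamer in Cdk15 18 bases before it. Ppbp, which encodes a platelet chemokine, had a signal of 2.08 and 2.36 at 0 h and 42.9, 19.0, 9.72 and 6.92 at 6 h, with replicate 1 highest. It had too few reads to be tested in SCC1-mAID. Cdk15, a cyclin-dependent kinase, was at 2.77 and 2.10 at 0 h, 15.5, 18.3, 12.1 and 19.0 at 6 h and 0 in all 4 libraries at 72 h.

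Nuclear RNA of SCC1-mAID cells, which took no part in choosing the genes, asked whether they respond to 4 h of RA and whether auxin, which targets the cohesin subunit, alters that. Of the 72 genes with enough reads to test, 49 rose with RA against untreated cells and 0 fell (edgeR quasi-likelihood test, Benjamini-Hochberg adjusted p under 0.05). Over all 14015 genes tested, 1.78% were higher and 0.749% lower. The median log2 fold change was 1.28 over the 72 genes, 1.01 over 126 tested genes still raised at 72 h in E14 (61 higher, 0 lower), and -0.02 over all genes. All 3 RA libraries stood above all 3 untreated libraries for 61 of the 72 genes (84.7%) and for 11.0% of all genes. With the authors' size factors in place of TMM scaling, which moved the median of all genes by 0.20, 19 of the 72 genes were called, and leaving out 1 library left 34 to 42.

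Zan had the smallest adjusted p, with 29.6, 22.6 and 25.1 CPM in RA cells against 2.97, 2.68 and 2.05 CPM in untreated cells, a log2 fold change of 3.29 ± 0.30 (SE, n = 3 each, edgeR adjusted p = 3.14e-06). Tmtc1 had 149, 135 and 153 CPM with RA against 36.8, 45.9 and 33.7 CPM untreated (1.91 ± 0.20, adjusted p = 1.81e-05), and Nt5e 59.3, 46.5 and 71.5 CPM against 17.9, 17.7 and 21.6 CPM (1.64 ± 0.18, adjusted p = 2.74e-05). None of these libraries overlapped between the groups. Srms had 2.69, 2.86 and 3.07 CPM with RA against 0.67, 0.50 and 0 CPM untreated, a log2 fold change of 2.63 ± 0.48 (adjusted p = 0.00348) that rests on few reads.

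By role, with no test between roles, 9 of 10 transporters, channels and junction proteins rose (4 of 10 in clone E3), among them the water and glycerol channel Aqp3 (log2 1.94), the connexin Gjb1 (1.53), the peptide transporter Slc15a1 (1.07) and the iron-binding surface protein Meltf (2.14). Aqp3 had 540.5, 369 and 405 CPM with RA against 136, 98.1 and 108 CPM untreated. Of 8 kinases and other intracellular signalling genes tested, 6 rose, led by Cdk15 (3.66 ± 0.42, adjusted p = 3.11e-05) and including Ksr1, a scaffold of the Ras-MAPK cascade (1.64), and Pmepa1, an inhibitor of TGF-beta signalling (1.62).

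Receptors and surface proteins rose in 9 of 14 cases. They include the BAFF receptor Tnfrsf13c (2.23), the delta opioid receptor Oprd1 (2.24), the adhesion receptor Adgrg5 (2.34), the metabotropic glutamate receptor Grm2 (1.46) and Notch4 (0.90 ± 0.20, adjusted p = 0.0200). These receptors are known from lymphocytes, neurons and endothelium. Transcription and RNA regulators rose in 8 of 11 cases, among them Irf5, an interferon regulatory factor (1.60), Dmrt1, a factor of the gonad (1.19), Tle6, an oocyte member of the TLE corepressor family (1.97), and the neuronal RNA-binding protein Elavl3 (1.21).

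Of the secreted signals, 3 of 7 were higher: Wnt8a, a Wnt ligand (1.67 ± 0.22, adjusted p = 0.00016), Nppc, C-type natriuretic peptide (1.65), and Hbegf, an EGF receptor ligand (1.28). Fgf8 had 0.72, 0.78 and 0.72 CPM with RA against 1.48, 1.51 and 2.73 CPM untreated (-1.29 ± 0.49, adjusted p = 0.274). Matrix proteins and secreted enzymes rose in 4 of 7 cases, those being the phosphatase Acp5 (1.87), the matrix metalloproteinase Mmp9 (1.55), the collagen chain Col6a5 (1.47) and Fam20a (2.20). Metabolic enzymes rose in 2 of 3 cases (Tmtc1, and Fbp1 of gluconeogenesis), and genes with other or unassigned roles in 8 of 12.

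The division seen between E14 replicates recurred here. All 49 genes that rose were among the 65 tested of the 68 that rise in replicates 3 and 4 (median log2 1.47), and 0 of the 7 tested of the 11 others passed, with a median of -0.24 (2 had an unadjusted p under 0.05). This grouping was made after the E14 values were seen, so its counts are a description. In SCC1-mAID cells T changed by 0.36 ± 0.47 (adjusted p = 0.878) and Wisp1 by -1.22 ± 0.36 (adjusted p = 0.0971). Summed fibroblast markers were 81.3 to 102 CPM with RA against 70.98 to 99.2 CPM untreated.

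With auxin present, 44 of the 72 genes rose and 0 fell, against 1.83% higher and 0.835% lower over all genes, with a median log2 fold change of 1.252. All 3 libraries with RA and auxin exceeded all 3 with auxin alone for 57 of the 72 genes (79.2%) and for 6.90% of all genes. Zan had 27.3, 27.8 and 31.8 CPM with RA and auxin against 1.59, 2.64 and 6.63 CPM with auxin alone (2.95 ± 0.29, adjusted p = 8.09e-06). Under the authors' size factors 11 genes were called, and leaving out 1 library gave 30 to 49. Of the 72, 38 genes were called with and without auxin, 11 only without, 6 only with it and 17 in neither.

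The difference of the 2 RA responses passed the edgeR test for 0 of the 72 genes, as for 0.0% of all genes, and DESeq2 also gave 0, while 5 genes had an unadjusted p under 0.05. The median difference was -0.00 on the log2 scale with quartiles of -0.34 and 0.27. For Zan it was -0.34 (95% interval -1.21 to 0.52), for Tmtc1 0.01 (-0.54 to 0.57) and for Nt5e 0.13 (-0.38 to 0.64). These intervals leave room for changes of response that 3 libraries a group cannot resolve.

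The 5 genes with an unadjusted p under 0.05 were Srms, Gjb1, Bhlhe40, Il15ra and Col6a5. Srms had 1.17, 1.36 and 1.29 CPM with RA and auxin, less than in each of the 3 libraries with RA alone given above, and 0.96, 0.63 and 0.39 CPM with auxin alone. Its difference of responses was -1.62 (interval -3.12 to -0.11, unadjusted p = 0.0499, edgeR adjusted p = 0.692). Gjb1 had 23.3, 15.4 and 22.3 CPM with RA and auxin against 5.09, 2.52 and 3.70 CPM with auxin alone, and 16.5, 12.5 and 16.2 CPM with RA against 5.396, 4.69 and 5.69 CPM untreated, a difference of 0.99 (0.29 to 1.70, adjusted p = 0.689).

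Auxin by itself called 0 of the 72 genes (auxin against untreated; 0.0999% of all genes higher and 0.178% lower; 11 genes with an unadjusted p under 0.05, 1 called by DESeq2). In RA, auxin against no auxin also called 0 (0.0428% of all genes higher and 0.350% lower; 12 with an unadjusted p under 0.05). Lgals9, a galectin, came nearest, with 7.33, 7.26 and 9.57 CPM in RA with auxin against 14.9, 13.8 and 17.5 CPM in RA alone, a log2 fold change of -0.96 ± 0.22 (adjusted p = 0.0880). It was the gene called by DESeq2, without the filter on low counts and with the replicate number as a block (1 gene each). Among the 126 tested genes still raised at 72 h in E14, 7 were lower in RA with auxin.

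**Figure D3:**
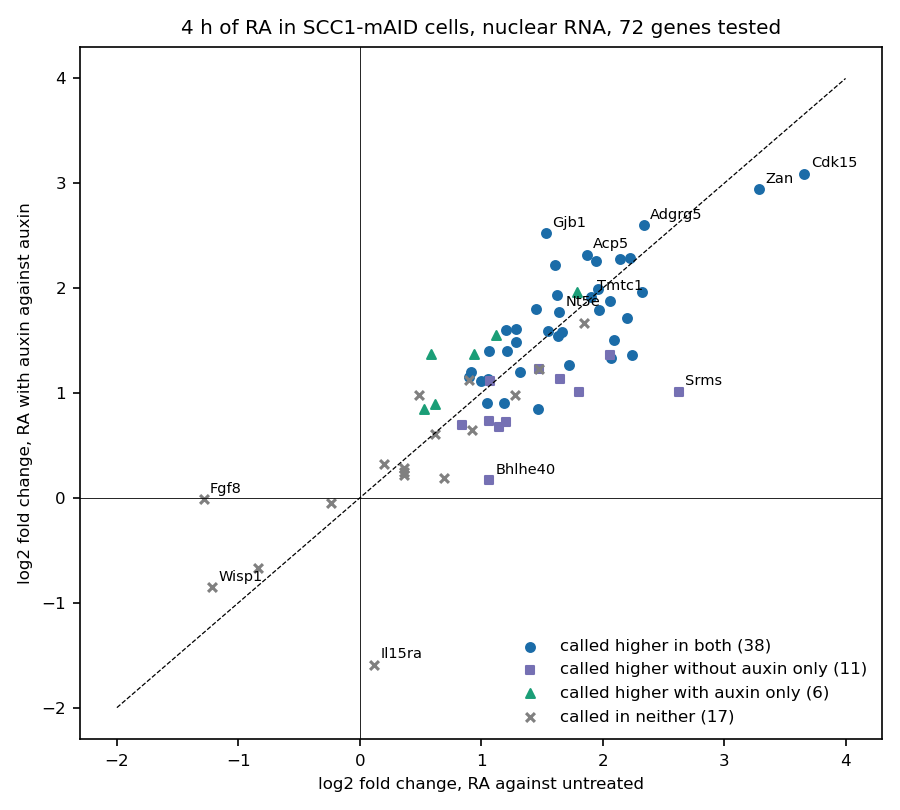
Log2 fold change of 72 genes after 4 h of RA in SCC1-mAID nuclear RNA, without auxin (x axis) and with auxin (y axis); the dashed line marks equal responses, and symbols show in which comparison a gene was called. Most points lie near the line, with Srms below it and Gjb1 above it; 38 genes are called higher in both.

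The clones, which the rule did not use either, were measured in 2 libraries per time. The mean of 4 h and 6 h against 0 h was higher for 41 of 78 genes tested in E3 (3.24% of all 15896 genes higher, 3.53% lower), for 49 in H12 (4.02% and 2.95%) and for 51 in G4 (4.63% and 2.91%). The only gene lower was Wisp1, in H12. Median log2 fold changes were 1.14 in E3, 1.17 in H12 and 1.30 in G4, against 0.00 over all genes in each clone. These counts lean on the 0 h libraries: without 1 of them, 23 or 25 genes were called in E3 and 28 or 22 in H12, and 30 in G4 without its replicate 2 at 0 h.

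Cdk15 had the smallest adjusted p of the 78 genes in each clone, with log2 fold changes of 3.72 ± 0.31 in E3 (adjusted p = 1.47e-09), 3.71 ± 0.27 in H12 (5.81e-11) and 4.05 ± 0.30 in G4 (1.97e-10). In G4 it had 27.5 and 33.7 CPM at 4 h and 34.2 and 46.9 CPM at 6 h against 1.79 and 2.42 CPM at 0 h. Its clone libraries at 4 and 6 h all stood above those at 0 h. The tartrate-resistant phosphatase Acp5 rose by 2.87 in E3, 3.07 in H12 and 3.06 in G4, and the oocyte gene Tle6 by 2.28, 2.50 and 2.56 in the same order.

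Srms rose in each clone, by 3.10 ± 0.49 in E3, 2.79 ± 0.44 in H12 and 2.98 ± 0.42 in G4 (edgeR adjusted p = 5.77e-05, 5.19e-05 and 1.06e-05). It was weakly counted here too, with 0.40 and 0.42 CPM at 0 h in E3 and 1.03 and 0.25 CPM in G4. Tmtc1 rose by 1.73, 1.84 and 1.71 and Nt5e by 1.78, 1.62 and 2.09. Of Wnt ligands, Wnt8a rose in all 3 clones (2.38, 1.57 and 2.68), and Wnt3a rose in E3 (1.38) and G4 (1.69) but had 0.54 ± 0.51 in H12 (adjusted p = 0.672).

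In all, 38 genes were called higher in all 3 clones, and 26 were called higher in all 5 nuclear comparisons of RA with no RA (3 clones, and SCC1-mAID with and without auxin). Those 26 are Zan, Nt5e, Tmtc1, Cdk15, Tle6, Shisa8, Acp5, Irf5, Slc15a1, Cd37, Fam20a, Aqp3, Zfhx2, Adgrg5, Pou2f2, Wnt8a, Oprd1, Notch4, Grm2, Ksr1, Prrt3, Dmrt1, Col6a5, Pmepa1, Elavl3 and Steap3. Another 15 were called in 4 comparisons, and 19 in none. The shares of all genes that meet these joint conditions were not counted. The 19 are the 11 genes with a ratio under 1.5 in E14 replicates 3 and 4 and 8 others. These are Ppbp, Btn1a1, Gm13889, Ptger1, Edn1, Nos2, Nlrc3 and 1810010H24Rik. Of the 19, Cxcl11 was tested in none of the 5 comparisons. Ppbp, Btn1a1, Gm13889, Cav1, Lox and Wnt4 were tested only in the 3 clones. Nos2, inducible nitric oxide synthase, had log2 values of 1.85 ± 0.49 with RA in SCC1-mAID cells (adjusted p = 0.0560), -0.13 in E3, 0.96 in H12 and -0.28 in G4.

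The clones' medians rose and fell over the same hours as those of E14. The median log2 ratio to 0 h at 2, 4, 6, 24, 48 and 74 h was 0.62, 0.81, 1.00, 0.37, -0.10 and -0.45 in E3, 0.85, 0.98, 1.05, 0.19, -0.49 and -0.48 in H12, and 0.69, 1.13, 1.04, 0.39, -0.33 and -0.66 in G4. The highest mean fell at 6 h for 41 of the 79 genes in E3, for 27 in H12 and for 31 in G4. It fell at 74 h for 5, 5 and 4 genes.

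**Figure D4:**
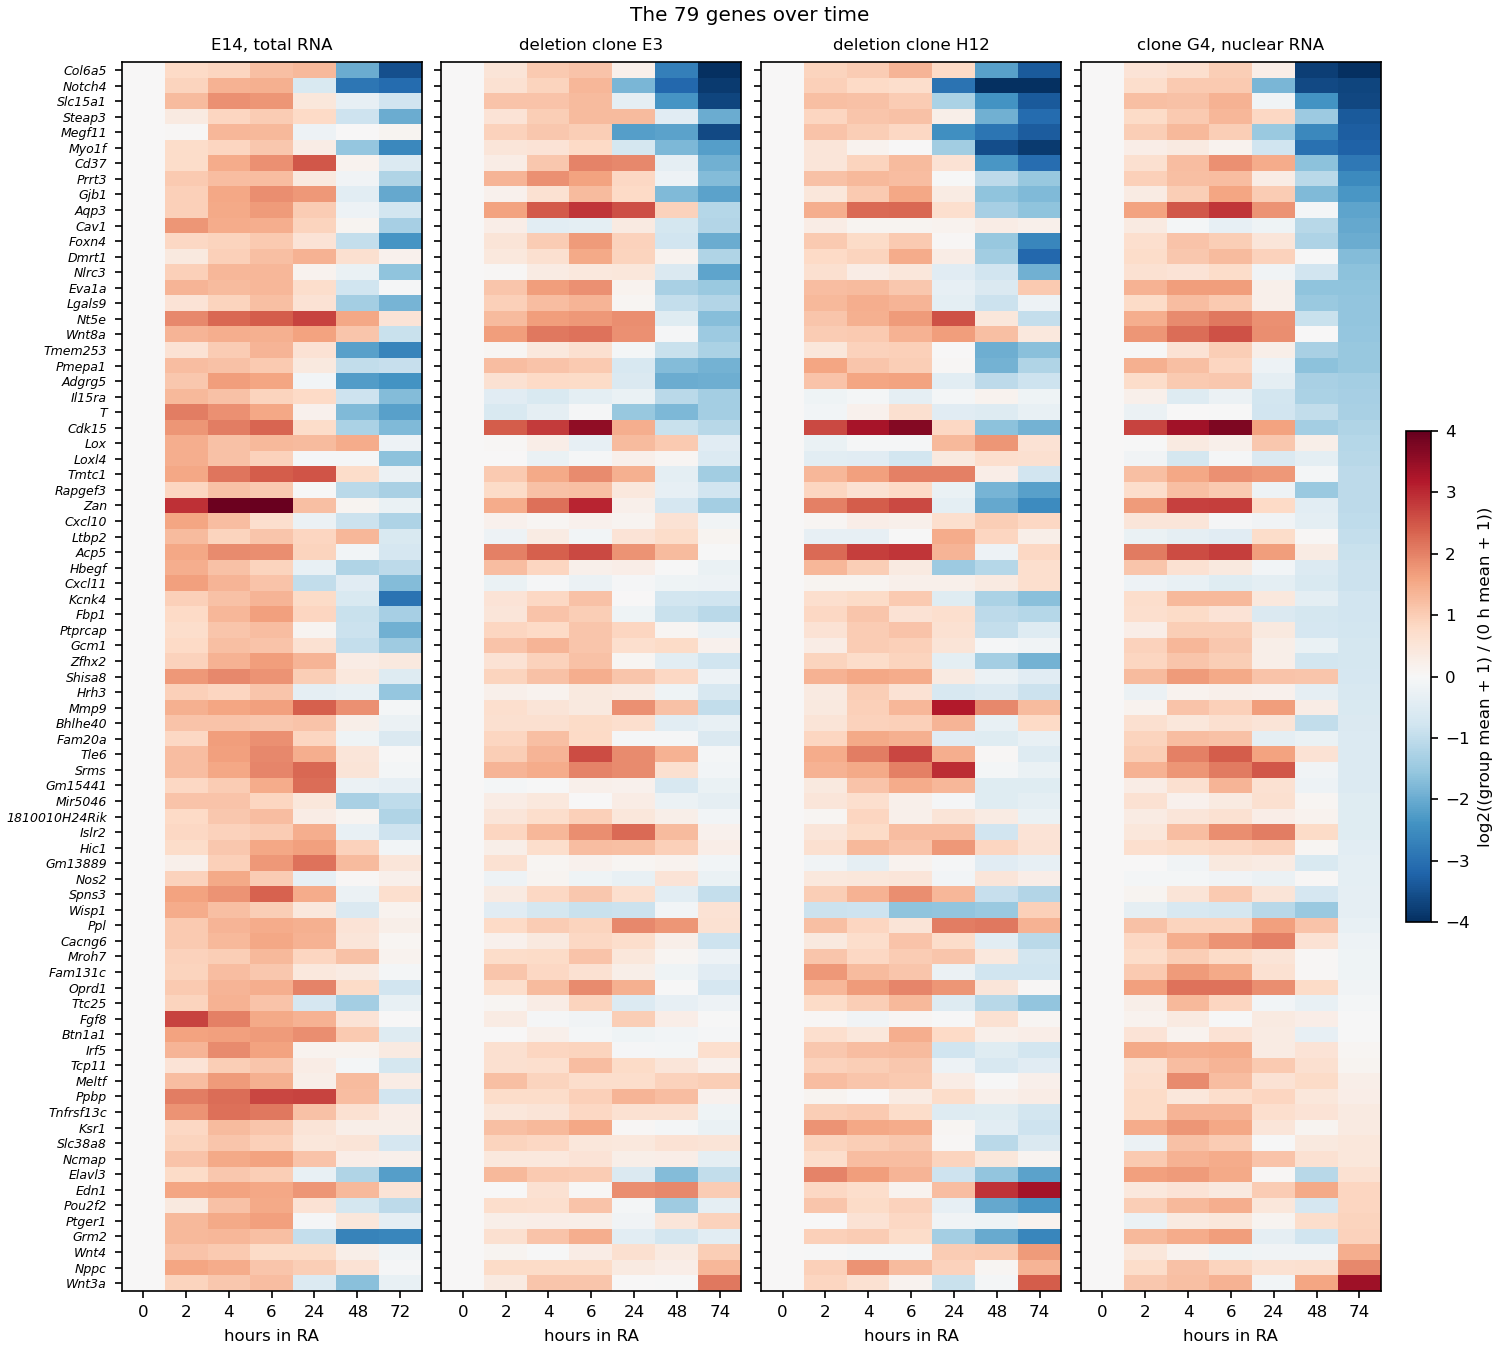
Log2 ratio of each group mean plus 1 to the 0 h mean plus 1 (colour; red higher, blue lower, limits of -4 and 4) for the 79 genes (rows, ordered by the G4 value at 74 h) against hours in RA (columns) in E14 total RNA, deletion clones E3 and H12 and clone G4 nuclear RNA. Red columns at 2 to 24 h give way to blue at 48 h and later for most genes, while Wnt3a, Nppc and Wnt4 at the bottom are red at 74 h in each clone.

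Deletion clones and G4 were then compared at 4 h and 6 h. The mean of E3 and H12 was higher than G4 for 10 of the 78 genes and lower for 7, against 4.53% higher and 8.69% lower over all genes. Zan had the smallest adjusted p of the higher genes, at 1.23 ± 0.21 (adjusted p = 0.000156). It had 70.2, 88.1, 66.9 and 116 CPM in H12 and 10.5, 22.4, 26.9 and 34.2 CPM in E3, against 15.3, 21.8, 12.8 and 25.2 CPM in G4. H12 alone stood apart, E3 overlapped G4, and at 0 h H12 already had 12.7 and 14.9 CPM against 1.79 and 2.03 CPM in G4.

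Also higher were Spns3, a spinster family transporter (1.44), Mroh7 (0.89), Fbp1 (1.04), Steap3 (0.67), Ttc25 (0.57), Tle6 (0.56), Notch4 (0.51), Ksr1 (0.44) and Pmepa1 (0.43). Lower were Cav1 (-3.17 ± 0.51, adjusted p = 5.19e-05), Il15ra (-2.57), Lox (-2.13), Wisp1 (-1.39), Wnt8a (-1.02), Wnt4 (-0.94) and Bhlhe40 (-0.74). Of these 7, 5 belong to the 11 genes with a ratio under 1.5 in E14 replicates 3 and 4. Cav1 had at most 0.16 CPM in the H12 libraries at 4 h and 6 h and 0.53 to 2.17 CPM in E3, against 1.94 to 4.63 CPM in G4. All these values average E3 and H12, which were not tested singly, so a difference can rest on a single clone. At 4 h and 6 h Wnt8a in E3 (17.0 to 26.7 CPM) lay within G4 (14.9 to 32.4 CPM). Notch4 in E3 (81.5 to 127 CPM) overlapped G4 (84.2 to 89.5 CPM).

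Other lists moved alongside. Immediate early genes were lower in 7 of 13 cases, neural progenitor markers in 4 of 11 and fibroblast markers in 3 of 9, with 0 higher in each. The summed immediate early genes at 4 h and 6 h were 161 to 169 CPM in E3 and 93.6 to 132 CPM in H12, against 209.9 to 248.8 CPM in G4. Neural progenitor markers summed to 51.6 to 84.5 CPM in E3 and 22.3 to 24.5 CPM in H12, against 72.1 to 132 CPM in G4. Endoderm markers summed to 797 to 1004 CPM in E3 and 485 to 564 CPM in H12, against 623 to 723 CPM in G4. The fibroblast sum was 49.3 to 65.0 CPM in E3 and 45.7 to 67.1 CPM in H12, against 74.1 to 87.2 CPM in G4. Their part in the lower genes was not tested. The total of 17 called genes fell to 8 without replicate 1 of G4 at 4 h or at 6 h, and to 11 without replicate 2 of E3 at 4 h.

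The response itself, early against 0 h, did not differ detectably between deletion clones and G4 for any of the 78 genes (edgeR, 0 called; DESeq2, 0 called; 0.0% of all genes; 3 with an unadjusted p under 0.05). The median difference was -0.17 on the log2 scale with quartiles of -0.42 and 0.07, against a median of -0.001 over all genes. It was below 0, a smaller response in the deletion clones, for 55 of the 78 genes and above 0 for 23. For Zan the difference of responses was -0.46 (interval -1.48 to 0.56), for Nt5e -0.39 (-1.24 to 0.46) and for Srms -0.04 (-1.65 to 1.56). The 3 genes with an unadjusted p under 0.05 were Cacng6, Fam131c and Tnfrsf13c, the last at -2.95 (-5.22 to -0.68, adjusted p = 1).

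The return was followed with times that the rule did not use. In E14, however, these lie among times that it did use. A fall between 6 h and 72 h was set by the choice of genes, so the E14 counts are no independent support for a return. In E14 at 24 h against 2 h, 9 of the 79 genes were higher and 17 lower, against 15.5% and 16.1% of all 15061 genes. Lower at 24 h were the fast genes Grm2 (-2.30 ± 0.31, adjusted p = 4.58e-06), Elavl3 (-1.11 ± 0.17, 1.90e-05), Hbegf (-1.77) and Zan (-1.76 ± 0.31, 0.000174). Higher were Dmrt1 (0.96), Cd37, a tetraspanin of lymphocytes (1.75), Tmtc1 (0.91), Srms (1.06), Gjb1 (0.79), Oprd1 (0.90), Hic1 (0.87), Gm13889 (2.30) and Gm15441 (1.49). The total of 26 became 15 without replicate 3 at 24 h and 41 in replicates 3 and 4 alone.

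The step from 24 h to 48 h lies within the fall that the rule set. At 48 h against 24 h, 0 genes were higher and 33 lower in E14 (edgeR, with 36 called in all by DESeq2). Over all genes 11.1% were higher and 11.5% lower. Tmem253 had 11.6, 9.05, 5.03 and 2.31 at 48 h against 65.0, 55.04 and 40.7 at 24 h (-2.94 ± 0.36, adjusted p = 5.13e-06). Gjb1 fell by 2.28, Tmtc1 by 1.79 and Cd37 by 2.40 on the log2 scale. Without replicate 1 at 24 h, 21 genes were called. Of the 170 genes still raised at 72 h, which were chosen for that 72 h level, 26 were higher and 2 lower at this step.

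In the clones the fall had begun by 24 h. Against the mean of 4 h and 6 h, 24 h was lower for 26 genes and higher for 6 in E3 (16.6% and 17.5% of all genes), for 40 and 8 in H12 (16.9% and 19.2%), and for 31 and 3 in G4 (12.4% and 14.8%). Zan in G4 had 3.31 and 4.84 CPM at 24 h. Srms had 13.6 and 9.87 CPM at 24 h in H12, 4.33 and 4.11 CPM in E3 and 6.34 and 9.98 CPM in G4, each above or within the clone's range at 4 h and 6 h.

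At 74 h against the same early mean, 56 genes were lower and 4 higher in E3 (29.5% and 29.8% of all genes), 56 and 6 in H12 (32.1% and 31.1%), and 65 and 3 in G4 (30.0% and 29.1%). Median log2 changes were -2.08, -2.33 and -2.51, each against a median within 0.05 of 0 over all genes (-0.02, -0.04 and -0.04).

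Many genes ended below where they began. At 74 h against 0 h, 34 of 78 were lower and 6 higher in E3 (27.8% and 28.4% of all genes), 36 and 11 in H12 (29.4% and 30.0%), and 43 and 7 in G4 (27.9% and 28.5%), with median log2 changes of -0.84, -0.85 and -1.28. Of the 169 tested genes still raised at 72 h in E14, 150 were higher and 1 lower in E3, 147 and 6 in H12 and 144 and 5 in G4. In all 3 clones, 24 of the 78 genes were lower and 3 were higher. The matching shares over all genes were not counted.

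Notch4 had 2.17 and 2.61 CPM at 74 h against 55.7 and 38.3 CPM at 0 h in E3, 4.28 and 3.23 against 92.5 and 85.7 CPM in H12, and 2.80 and 1.87 against 46.2 and 37.1 CPM in G4. The log2 fold changes were -4.28 ± 0.37, -4.57 ± 0.34 and -4.12 ± 0.36, with adjusted p of 5.31e-11, 3.44e-12 and 8.45e-11. The collagen chain Col6a5 had log2 changes of -7.59 in E3, -5.09 in H12 and -8.10 in G4, and the peptide transporter Slc15a1 -4.62, -3.91 and -4.69. Zan also ended below its start, at -2.53 ± 0.77 in E3, -3.14 ± 0.50 in H12 and -2.08 ± 0.82 in G4 (adjusted p = 0.00634, 3.73e-06 and 0.0315).

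Over the same interval the summed pluripotency markers were 126 to 346 CPM at 74 h against 1810 to 2651 CPM at 0 h, and all 13 were lower in G4. Whether the fall of the 79 genes below their start goes with the loss of pluripotent cells was not tested.

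The 3 genes higher in all 3 clones were secreted signals, and further genes were higher in some clones only. Wnt3a had 14.6 and 13.4 CPM at 74 h against 2.56 and 2.35 CPM at 0 h in E3, 8.41 and 18.7 against 1.67 and 1.79 CPM in H12, and 30.6 and 25.9 against 1.54 and 2.03 CPM in G4 (2.50, 2.97 and 3.97 on the log2 scale). Nppc rose by 2.73, 2.29 and 3.84 and Wnt4 by 1.13, 2.36 and 1.64. In E14 total RNA, Wnt3a was at 9.24, 19.96, 29.1 and 34.7 at 72 h against 29.1 and 28.1 at 0 h. The rule set that 72 h level, so it is not compared with the clones.

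The 3 clones did not end alike. E3 and G4 shared the direction for 34 of the 35 genes called in both, H12 and G4 for 28 of 34. Edn1, endothelin-1, had 27.4 and 36.1 CPM at 74 h against 2.56 and 1.95 CPM at 0 h in H12 (3.79 ± 0.63, adjusted p = 1.09e-05), with 1.104 in E3 and 0.97 in G4 (adjusted p = 0.0975 and 0.154). Mmp9 and Ppl, a periplakin of cell junctions, were likewise called higher in H12 (1.94 and 1.54). At 74 h the extra-embryonic endoderm markers summed to 16068 to 18094 CPM in H12 and 2109 to 2586 CPM in E3, against 1871 to 2500.45 CPM in G4. In H12 at 0 h they summed to 579 to 614 CPM. Their part in these genes was not tested.

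**Figure D5:**
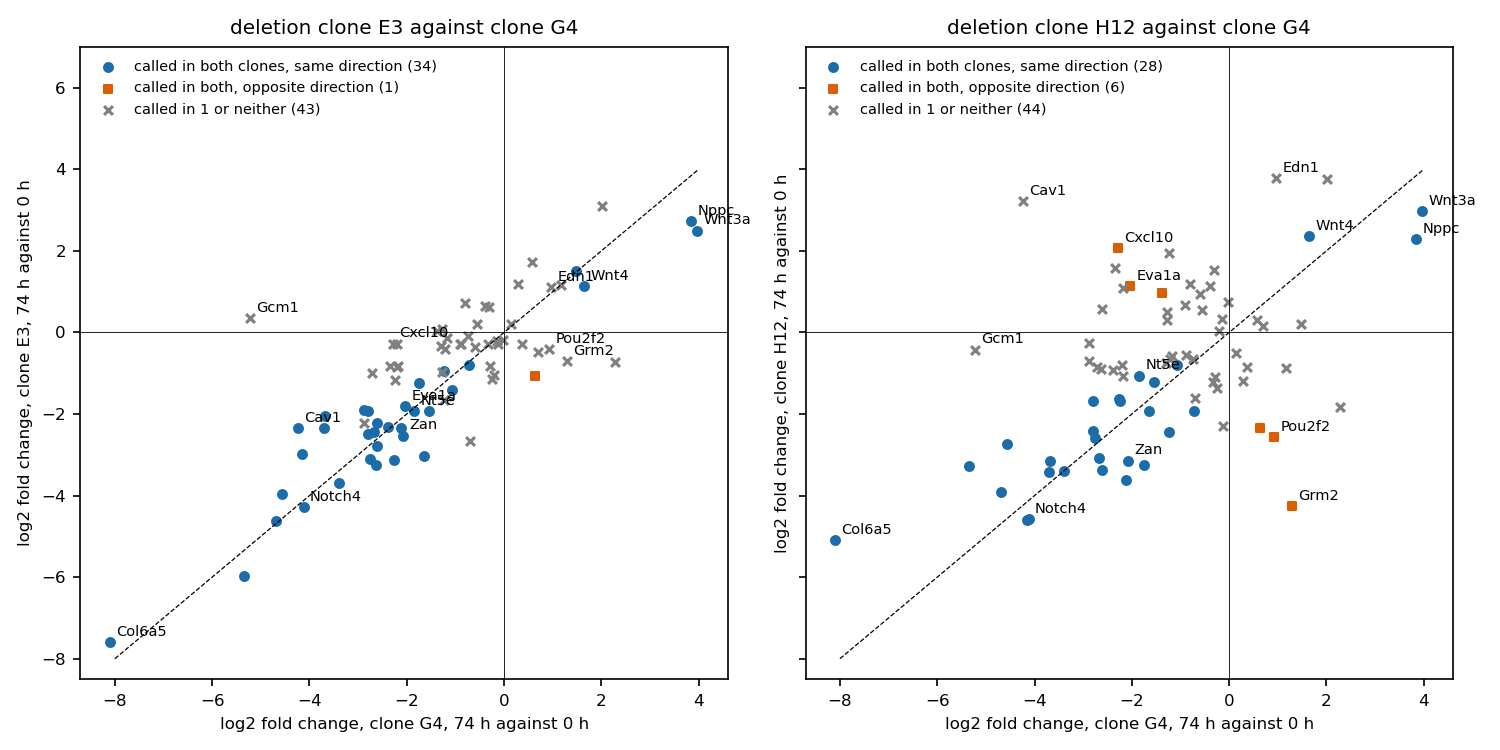
Log2 fold change of 78 genes at 74 h against 0 h in E3 (left, y axis) and H12 (right, y axis) against the same change in G4 (x axes); circles are called in both clones in the same direction, squares in both in opposite directions, crosses in 1 or neither. E3 follows the dashed line of equality, with 1 opposite gene, and H12 has 6 opposite genes.

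As a measure of the RA response in the same libraries, 9 of 21 tested genes of the RA pathway rose in SCC1-mAID cells with RA and 0 fell. Over all genes 1.78% rose and 0.749% fell. Among the 9 were Cyp26a1, which degrades RA (6.75 ± 0.28), and the receptor gene Rarb (3.51 ± 0.30). In G4 the early counts were 9 and 0 of 23 (4.63% and 2.91% of all genes). At 74 h against 0 h in G4, 18 genes of that pathway were higher and 3 lower, where 7 of the 79 genes' 78 tested were higher and 43 lower. Over all genes 28.5% were higher and 27.9% lower in that comparison.

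Some counts cannot be assigned with certainty. Of the 79 genes, 12 overlap another gene and 3 of them, Acp5, Pou2f2 and Mir5046, do so on the same strand. Mir5046 lies in Rps6ka4, whose exons could supply its reads. Whether reads were assigned by strand is not given in the sources used here, so Gm15441 (within Txnip), Tmem253 (Zfp219) and Tmtc1 (Rps4l) may carry reads of a more abundant neighbour on the other strand. The mean CPM in E14 was 1.64 for Gm15441 and 256 for Txnip, 8.49 for Tmem253 and 117 for Zfp219, and 62.4 for Tmtc1 and 214 for Rps4l.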

How the data were processed

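RNA was measured in 79 libraries: 25 of E14, 12 of SCC1-mAID and 42 of the clones. Libraries were rRNA-depleted, strand-specific and paired-end with Drosophila cells added, per the labels' protocols. STAR, Bowtie2, SAMtools and DESeq2 and builds mm10 and dm6 are named per the submitters' processing notes. The deposited tables hold a signal per transcript, which is a read count divided by a library size factor. Dividing by the step of each column recovered whole counts from the deposited signal (tolerance 0.1 read), with at least 99.9966% of values whole in every library; in 3 clone columns the size factor is near 1, so rounding there cannot be told apart from whole reads. The strand and intron settings of counting are not given in the sources used here.

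The transcript with the highest mean signal stood for each gene where several were listed. Counts were tested with edgeR 4.0.16 (quasi-likelihood, TMM scaling, filterByExpr) in R 4.3.3, and p-values were adjusted by Benjamini-Hochberg over all genes of a set, with a threshold of 0.05. One fit per set covered all its groups. CPM values use TMM library sizes, and SEs were taken from the fold change and its F statistic. DESeq2 1.42.0, the authors' size factors, no filter, the replicate number as a block and leaving out each library were alternatives. The scripts were tested on simulated data.

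The genes and the 13 gene lists were chosen with earlier results of these data known. Genes named are Zan, Nt5e, Tmtc1 and Srms, the 20 with the largest early ratio, up to 6 called in each direction per test with the smallest adjusted p, those called in the auxin and deletion tests, those nearest each limit, and list members. Others were chosen after their values were seen, such as examples of a role and the 11 genes with a ratio under 1.5 in E14 replicates 3 and 4. Same-numbered libraries did not deviate together in every pair, so replicate numbers were not taken as pairs.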

Additional observations from a re-analysis of the deposited data

Results flagged for a closer look

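In 65 groups of 4 libraries over 13 of the genes, 5 held a library far from the other 3 in deposited E14 signal, and chance alone sets apart about 1 group in 20 by this measure. T had 15.51 in replicate 1 at 48 h, against 2.26 to 3.35 in the others. Ppbp had 3.63 in replicate 2 at 72 h, where the other 3 were at 0. Cdk15 had 7.85 in replicate 2 at 4 h, against 14.09 to 15.28, and 1.68 in replicate 3 at 48 h, where the others were at 0. Aqp3 had 446.02 in replicate 3 at 48 h, against 720.52 to 742.67.

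At 74 h against 0 h, 7 genes were called in opposite directions in different clones. The difference between clones was not tested. The acid phosphatase Acp5 had a log2 change of 0.96 in H12 and -1.38 in G4, and the chemokine Cxcl10 2.06 in H12 and -2.29 in G4. Eva1a had -1.805 in E3, 1.13 in H12 and -2.03 in G4. The neuronal genes Elavl3 and Grm2 went the other way: Elavl3 had -1.06 in E3, -2.335 in H12 and 0.64 in G4, and Grm2 -4.27 in H12 and 1.29 in G4. Pou2f2, an octamer-binding factor of B cells, had -2.57 in H12 and 0.93 in G4, and Irf5 1.19 in E3 and -1.195 in H12. H12 is in each of these 7, while Elavl3 was also opposite between E3 and G4. H12 had the high endoderm marker sum at 74 h, and whether that has a part in these genes was not tested.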

How the results depend on the processing

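Counts of the 79 genes called depended on scaling in SCC1-mAID cells. With the authors' size factors, 19 genes were called for RA against untreated (49 with TMM) and 11 for RA with auxin against auxin (44 with TMM). Under it the all-gene median shifted by 0.20 and -0.13 on the log2 scale, by -0.35 for RA with auxin against RA and by -0.34 for the difference of responses. For auxin against untreated, DESeq2 called 1 gene (Col6a5) and no filter 2 (Col6a5 and Fam131c). For RA with auxin against RA, DESeq2, no filter, the replicate block and membership by E14 replicates 3 and 4 called 1 each, and leaving out a library 0 to 1. For 24 h against 2 h in E14, replicates 3 and 4 alone gave 41. The cause of these shifts was not tested.

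Leaving out 1 library gave 34 to 42 and 30 to 49 for the 2 RA responses, and 0 to 0 for auxin alone and for both differences of responses. The early counts were 23 to 37 in E3, 22 to 48 in H12 and 30 to 47 in G4, and those of 24 h against early 25 to 33, 37 to 47 and 24 to 30. At 74 h they were 50 to 59, 55 to 62 and 61 to 67 against early, and 32 to 37, 37 to 39 and 36 to 48 against 0 h. The deletion clones against G4 gave 8 to 16, and E14 gave 15 to 29 for 24 h against 2 h and 21 to 36 for 48 h against 24 h. Where 1 library remained in a group, it was assumed to vary like the other groups. The rule itself gave 75 to 87 genes without 1 library, 61 to 95 with a signal minimum of 20 or 5, 76 and 80 with a stricter or looser 72 h limit, and 107 with TMM scaling.

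Of 6743 alternative values of single named genes, 6093 stayed on the same side of the threshold, 650 lost the call and 0 reversed. Replicate numbers correlated above 0.1 in 35 of 67 same-number pairs in E14, 11 of 18 in SCC1-mAID and 250 of 420 in the clones, and 13 of 21, 7 of 9 and 36 of 40 libraries were closest to their own number. With the replicate block, RA with auxin against RA called 1 gene, and 618 of 620 named results kept their call. Depth limits genes such as Srms and Ppbp, and 7 of the 79 genes had too few reads to test in SCC1-mAID.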

Other observations

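Lists related to Zan, Nt5e, Tmtc1 and Srms were counted in SCC1-mAID cells with RA against untreated. Of O-mannosylation genes 1 of 20 rose (Tmtc1), of Src-family and related kinases 1 of 9 (Srms), of extracellular adenosine genes 1 of 14 (Nt5e) and of sperm and zona binding genes 1 of 7 (Zan), with 0 lower in each. Median log2 changes were 0.05, -0.06, -0.00 and 0.01. Of claudins and tight junction genes 0 of 15 rose and 1 fell.

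In the same comparison, where 1.78% of all genes were higher and 0.749% lower, trophoblast markers summed to 42.1 to 53.4 CPM with RA against 28.2 to 36.2 CPM untreated. Pluripotency markers summed to 2633 to 2722 CPM against 3023 to 3187 CPM, and neither sum overlapped between the groups. Of trophoblast markers 1 of 5 and of fibroblast markers 1 of 5 rose, of immediate early genes 1 of 12 rose and 1 fell, and of pluripotency markers 0 of 13 rose and 1 fell. By edgeR, 0 of 7 genes of 2-cell-like cells, 0 of 7 extra-embryonic endoderm markers and 0 of 3 neural progenitor markers were called, with medians of -0.12, 0.05 and -0.35.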
